A study of Arabidopsis thaliana with 6 samples.

Results

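The genes described here are 10 *Arabidopsis* chitinase loci of glycoside hydrolase families 18 and 19, chosen by family and locus with earlier results of these data known. They are the family 19 cluster of AT2G43590, AT2G43610 and AT2G43620, the separate family 19 gene AT4G01700, and the family 18 cluster of AT4G19720, AT4G19730, AT4G19740, AT4G19750, AT4G19760 and AT4G19770. Of these, 7 had a probe set (the group of short probes that reports one transcript) paired with that gene alone, out of 13286 genes so named on the arrays. AT4G19750 and AT4G19760 share 1 probe set with each other and AT4G19770 shares 1 with AT4G19800, so these 3 genes could not be read separately and no value is given for them. Whole seedlings of the Col-0 ecotype, 14 days old and grown in liquid medium, received either purified chitin tetramer (4mer, 100 µg/mL) or the same amount of water (Mock), and were harvested after 30 min. Both groups were wild type, each held 3 independent biological replicates, and RNA was hybridized to Affymetrix ATH1 arrays. Seedlings were grown many to a flask, so each array averages over plants and over organs.

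Chitinases cut the beta-1,4 bonds of chitin, the N-acetylglucosamine polymer of fungal cell walls and insect cuticles. Families 18 and 19 reach the same reaction with unrelated protein folds and catalytic mechanisms, and family 19 enzymes are found mainly in plants while family 18 occurs across all kingdoms. Plant chitinases attack the walls of invading fungi and release oligomers that plant receptors can sense, and many of their genes are induced during defense. The 4mer is both a fragment of the substrate of these enzymes and the compound applied here, and the comparison asks how their transcripts stood shortly after it was added.

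Levels are given as multiples of the median of all 22746 probe sets on the same array. Probe sets differ in how brightly they report a transcript, so levels of different genes are not compared as amounts of RNA. The arrays differed in one respect that bears on the comparison. Mock replicate 1 correlated with the other arrays at 0.947 to 0.957 over the 11431 probe sets with a mean level above 1, whereas all other pairs lay between 0.984 and 0.994. For that reason the difference of each of the 7 chitinases is also given without that array. Of 9 shoot, 9 root and 5 flower or seed marker genes listed to check the tissue, only 3 root genes had a probe set of their own. The shoot part and the lack of flower and seed tissue could therefore not be checked with the listed markers. *PYK10*, a root beta-glucosidase, was among the brightest probe sets, at the 99.7 percentile or above on every array, and the root hair expansin genes *EXPA7* and *EXPA18* lay between the 41.5 and 66.1 percentiles.

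AT2G43620 had the lowest ratio of 4mer to Mock among the measured chitinases. Its level was 2.02, 2.08 and 2.28 in the Mock replicates 1 to 3 and 0.887, 1.603 and 1.22 in the 4mer replicates 1 to 3. All 4mer arrays lay below all Mock arrays, and the 4mer arrays were more scattered, with the highest 1.81 times the lowest against 1.13 times in Mock. The means were 2.13 ± 0.14 (SD, n = 3) in Mock and 1.24 ± 0.36 (n = 3) in 4mer seedlings. This was a log2 fold change of -0.82 (standard error 0.20, 95% confidence interval -1.28 to -0.37), or a level 1.77-fold lower. It did not pass limma's test after adjustment over all probe sets (adjusted p = 0.196). Without Mock replicate 1 the log2 fold change was -0.86 (adjusted p = 0.109). In whole seedlings fewer cells that express a gene and less RNA per cell cannot be told apart.

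**Figure D1:**
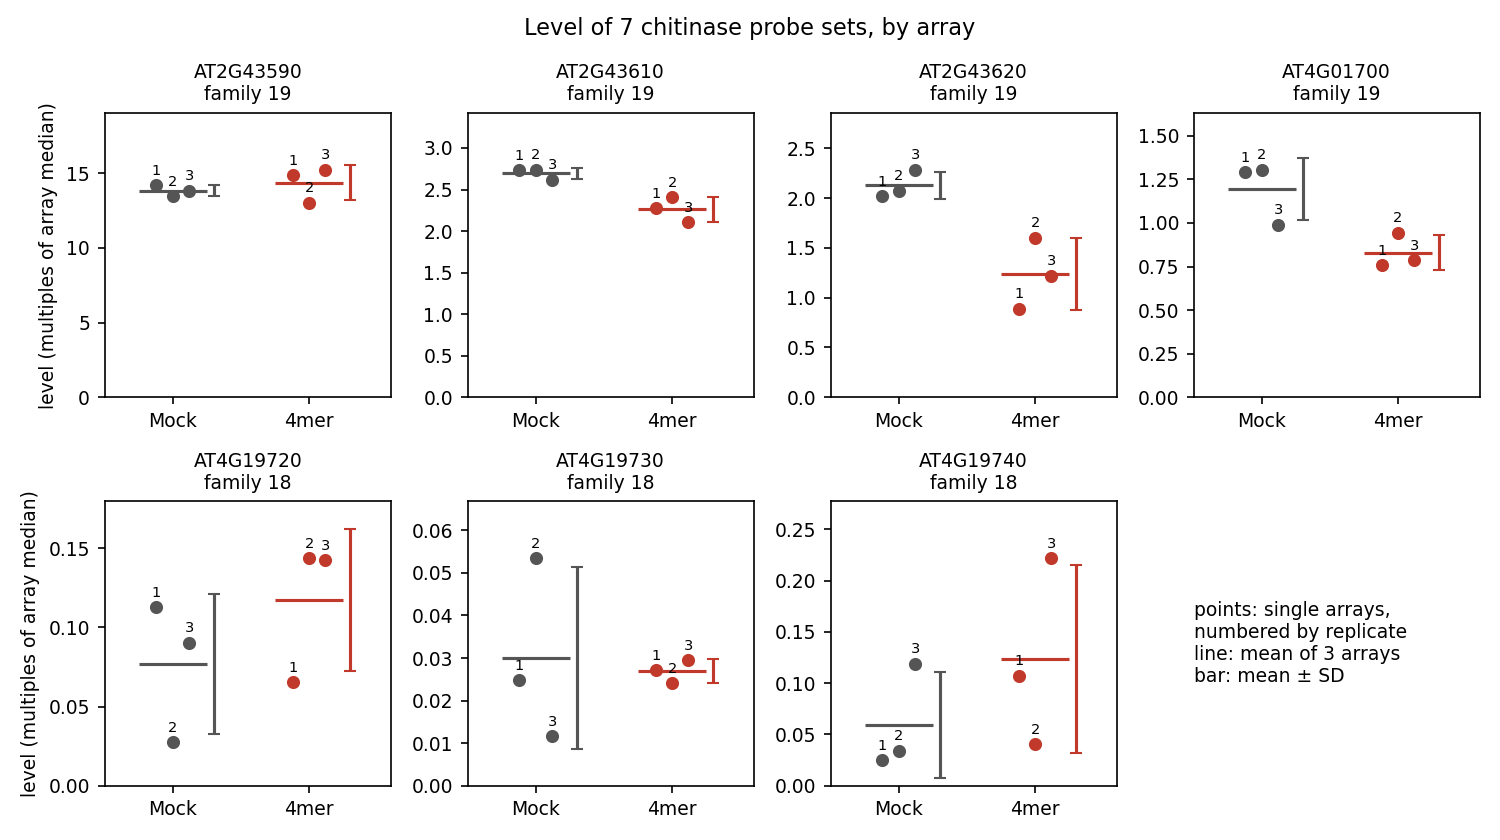
Level of the 7 chitinase probe sets (multiples of the array median, linear axis from 0) in Mock and 4mer arrays, with points numbered by replicate, a line at the mean of 3 arrays and a bar for mean ± SD. In AT2G43610, AT2G43620 and AT4G01700 the 3 4mer arrays lie below the 3 Mock arrays, while the groups overlap in AT2G43590 and in the family 18 genes, and no family 18 value exceeds 0.222.

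AT2G43610, from the same cluster, showed a smaller difference in the same direction. It was at 2.73, 2.74 and 2.62 in Mock and at 2.27, 2.41 and 2.104 in 4mer seedlings. The groups did not overlap, and the replicates lay close together. The log2 fold change was -0.26 (standard error 0.09, 95% confidence interval -0.45 to -0.06), and it did not pass the test (adjusted p = 0.342). Without Mock replicate 1 it was -0.25 (adjusted p = 0.173).

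AT2G43590 gave the brightest signal of the 7 probe sets and stood at nearly the same level in both groups. Its level was 14.2, 13.5 and 13.8 in Mock and 14.9, 13.0 and 15.2 in 4mer seedlings, which put it between the 95.03 and 95.86 percentiles of the arrays. The lowest and the highest of the 6 values both came from 4mer arrays. The difference in log2 level was 0.05, with a standard error of 0.09 and an adjusted p of 0.860. Its 95% confidence interval ran from -0.15 to 0.26, so that the data allow a rise of at most 1.19-fold within this interval. Without Mock replicate 1 the difference was 0.07.

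AT4G01700, the family 19 gene that lies apart from the cluster, was also lower in the 4mer arrays. Its level was 1.29, 1.305 and 0.990 in Mock and 0.758, 0.943 and 0.785 in 4mer seedlings. The groups did not overlap, but Mock replicate 3 and 4mer replicate 2 were separated by only a small gap. The means were 1.19 ± 0.18 (SD, n = 3) and 0.829 ± 0.10 (n = 3). The log2 fold change of -0.52 (standard error 0.16, 95% confidence interval -0.89 to -0.16) did not pass the test (adjusted p = 0.301), nor did the value of -0.46 without Mock replicate 1 (adjusted p = 0.207).

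None of the 7 chitinases passed the adjusted test, which 0.101% of all probe sets did. At an unadjusted p under 0.05 in limma, 3 of them were lower with the 4mer (AT2G43610, AT2G43620 and AT4G01700), beside 6.86% of all probe sets, and 0 were higher, beside 4.54%. The same 3 had every 4mer array below every Mock array, as had 12.5% of all probe sets, and 0 had the opposite order, which 7.86% of all probe sets had. The members were chosen with earlier results of these data known, so these counts are a description. Bright probe sets reached an unadjusted p under 0.05 in limma more often than dim ones, in both directions. At a mean level above 1, where AT2G43590 and the 3 lower members belong, 10.3% of probe sets were lower and 5.68% higher. At a mean below 0.25 the shares were 3.30% and 2.77%. With 3 arrays per group an exact two-sided permutation test of a single gene cannot give a p under 0.10. Any gene whose groups do not overlap reaches that value, as these 3 did, so it adds nothing to the order of the arrays. In all 3, 4mer replicate 2 was the highest of the 4mer arrays, so that leaving it out must enlarge the difference. The log2 fold changes were then -0.30 (AT2G43610), -1.03 (AT2G43620) and -0.62 (AT4G01700). The smallest differences with 1 array left out were -0.21 for AT2G43610 (4mer replicate 3) and -0.60 for AT2G43620 (4mer replicate 1). For AT4G01700 it was -0.45 (Mock replicate 2).

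The probe sets of the family 18 cluster were dim in both groups. AT4G19720 stood at 0.113, 0.0275 and 0.0903 in Mock and at 0.0655, 0.144 and 0.142 in 4mer seedlings. Of these, 2 of the 4mer arrays were above all Mock arrays and 4mer replicate 1 lay within the Mock range. AT4G19730 was at 0.0248, 0.0534 and 0.0117 in Mock and at 0.0272, 0.0241 and 0.0296 in 4mer seedlings, so the whole 4mer group lay inside the Mock range. AT4G19740 was at 0.0248, 0.0343 and 0.119 in Mock and at 0.107, 0.0406 and 0.222 in 4mer seedlings, with 1 array of the 4mer group above all Mock arrays. In the units of the deposited signal these probe sets lay between 2.4 and 45.8, where the array medians were 197.9 to 211.6, and on every array they ranked at or below the 22.1 percentile.

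Their log2 fold changes were positive and were not measured closely. They were 0.75 for AT4G19720 (standard error 0.63, adjusted p = 0.679), 0.11 for AT4G19730 (standard error 0.67, adjusted p = 0.968) and 1.09 for AT4G19740 (standard error 0.80, adjusted p = 0.633). The 95% confidence intervals reached from a level of 0.618 times to 4.61 times that of Mock for AT4G19720, from 0.370 to 3.15 times for AT4G19730 and from 0.597 to 7.55 times for AT4G19740. Single arrays moved these values. They were 1.15, 0.11 and 0.63, in the same order, without Mock replicate 1. AT4G19720 was at 0.13 without Mock replicate 2, its lowest array, and AT4G19730 was at -0.44 without Mock replicate 3. In AT4G19730 the mean level was lower in 4mer (0.0269) than in Mock seedlings (0.0300), and only the mean of the log2 levels was higher. AT4G19740 ran from 0.50 without 4mer replicate 3 to 1.76 without Mock replicate 3. A difference of the size seen in AT2G43620 was therefore not detectable in these 3 genes. With all levels below 0.25 set to 0.25, no difference was left in any of them, since every one of their values lies below that floor.

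Taken by cluster, the median log2 fold change was -0.26 over the 3 family 19 genes and 0.75 over the 3 measured family 18 genes, beside -0.01 over all probe sets. The family 19 value is made of 2 lower genes and 1 higher, and the family 18 value of 3 genes with a higher mean log2 level and overlapping groups, of which AT4G19730 had the lower mean level on the linear scale. The family 18 median was 0.17 with an offset of 0.25 added to each level and 0 with the floor of 0.25, while the family 19 median was -0.23 and -0.26 in the same settings.

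**Figure D2:**
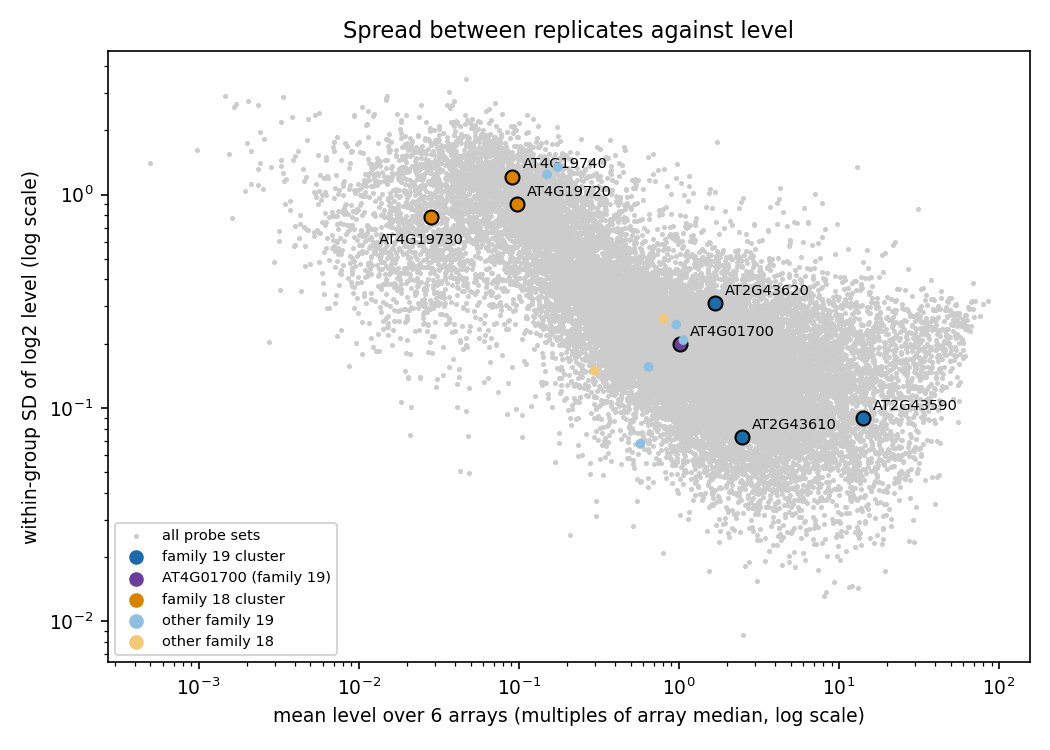
Standard deviation of the log2 level within groups (vertical, log scale) against the mean level over 6 arrays (horizontal, multiples of the array median, log scale), with grey points for all probe sets, large rimmed points for the 7 described chitinases and small coloured points for other chitinases. The family 18 cluster lies at the dim end with standard deviations of 0.784 to 1.21, and the 4 described family 19 genes lie at a mean level above 1 with 0.0730 to 0.309.

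The spread between replicates was larger in the family 18 cluster than in the 4 described family 19 genes. The standard deviation of the log2 level within groups was 0.0897 for AT2G43590, 0.0730 for AT2G43610, 0.309 for AT2G43620 and 0.200 for AT4G01700. The median over all 11431 probe sets with a mean level above 1 was 0.143, so AT2G43620 was more variable than most probe sets of its brightness, whose upper quartile was 0.210. The family 18 genes of the cluster had 0.901 (AT4G19720), 0.784 (AT4G19730) and 1.21 (AT4G19740). The median was 0.728 over the 5457 probe sets with a mean below 0.25. A wide spread was not limited to family 18. The family 19 genes AT2G43580 and AT2G43600, on either side of AT2G43590, also had a mean below 0.25, with 1.241 and 1.345. The brighter family 18 genes *ChiC* (AT4G19810) and AT4G19820 had 0.262 and 0.149.

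Relative to the other members on the same array, AT2G43620, singled out here because its ratio was the lowest, was lower in 4mer than in Mock seedlings. The difference of the log2 fold changes was -0.87 against AT2G43590 and -0.57 against AT2G43610, and in both the 4mer arrays did not overlap with the Mock arrays. Against AT4G01700 it was -0.30 and the groups overlapped. Against the family 18 genes it lay between -0.93 and -1.91, with no overlap only for AT4G19720. These differences are a description, since the gene was chosen from the same values.

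Among 14 further chitinase and chitinase-like loci of both families, listed from knowledge of the gene families, 8 had a probe set of their own, and none passed the adjusted test or had an unadjusted p under 0.05. Together with the members, 15 of 24 listed genes were measured. Of the 10 family 19 genes 8 were lower with the 4mer, and of the 5 family 18 genes 4 were higher, by the mean of the log2 levels. Over all 22746 probe sets 11902 were lower and 10844 higher. The counts depend on single arrays. Without Mock replicate 1 AT2G43580, AT2G43600 and AT3G47540 had positive differences of 0.52, 0.40 and 0.01, and AT4G19730 was counted as higher although its mean level was not. The 95% confidence interval lay wholly below a 1.5-fold rise in 8 of the 15 genes, and reached it in the other 7, all with a mean level below 1.

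Next to the cluster on the chromosome, *CHI* (AT2G43570), annotated as a chitinase, was at 0.661, 0.581 and 0.611 in Mock and at 0.529, 0.529 and 0.544 in 4mer seedlings. Its groups did not overlap, and its difference of -0.21 in log2 level (standard error 0.16) missed the threshold at an adjusted p of 0.643. AT1G56680, from another locus, had the opposite order, at 0.514, 0.629 and 0.612 in Mock and 0.638, 0.699 and 0.790 in 4mer seedlings. Its difference of 0.28 in log2 level also missed the threshold, at an adjusted p of 0.569. AT1G02360 and AT3G47540 had log2 fold changes of -0.25 and -0.13, with overlapping groups, and AT1G02360 was at -0.15 without Mock replicate 1. *ChiC* (AT4G19810), annotated as a class V chitinase of family 18, gave a signal near the array median, so it was measured more closely than the family 18 members. It lay between 0.637 and 0.958 in Mock and between 0.700 and 0.894 in 4mer seedlings. The difference in log2 level was -0.09, with a 95% confidence interval of -0.54 to 0.36, which allows at most a rise of 1.28-fold. Without Mock replicate 1, its lowest array, the difference was -0.27. AT4G19820, listed beside it, was at 0.261 to 0.305 in Mock and 0.281 to 0.354 in 4mer seedlings, a difference of 0.21 on the log2 scale that missed the threshold (adjusted p = 0.773).

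**Figure D3:**
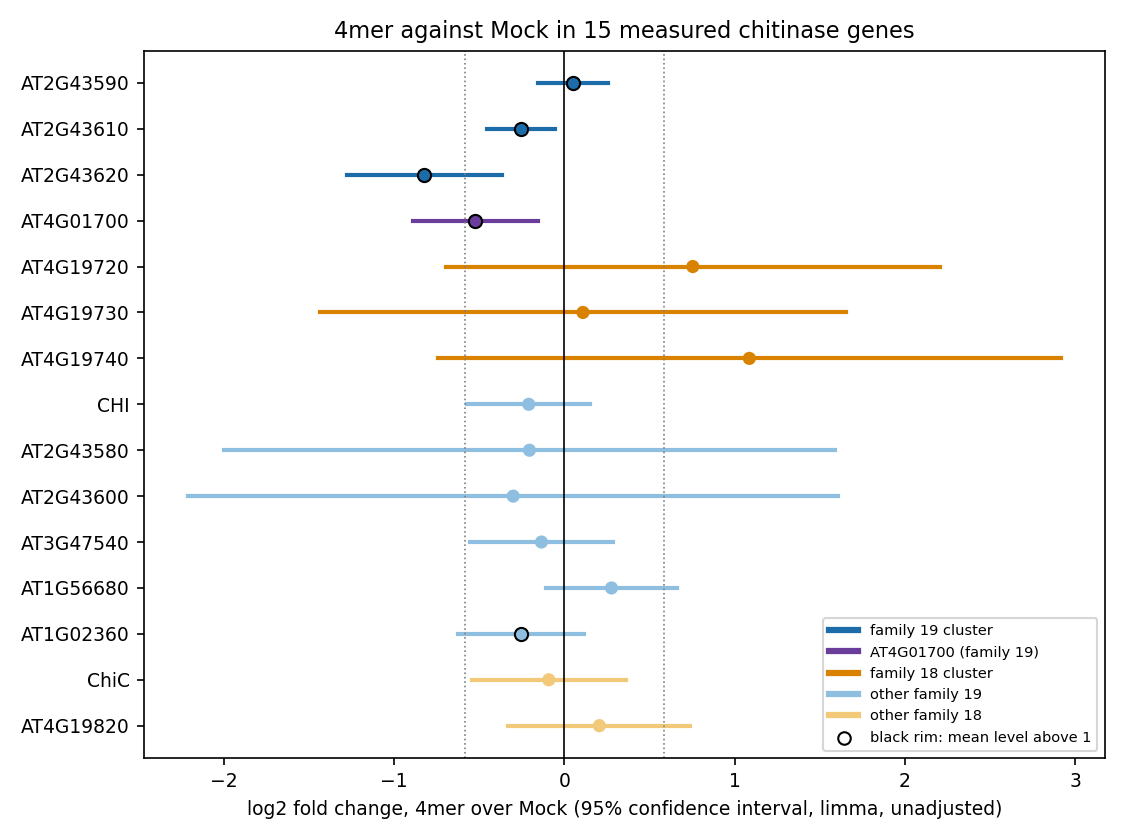
Log2 fold change of 4mer over Mock (horizontal) with its unadjusted 95% confidence interval from limma for the 15 measured chitinase genes, coloured by group, with black rims for a mean level above 1 and dotted lines at a 1.5-fold change. The intervals of AT2G43610, AT2G43620 and AT4G01700 lie below 0, and those of AT4G19720, AT4G19730 and AT4G19740 span both dotted lines.

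Of other genes of chitin sensing and defense, few were named. None of the 6 listed receptors with LysM domains, a group that includes chitin receptors of the cell surface, had a probe set paired with that gene alone. The same held for the 3 beta-N-acetylhexosaminidases, which take N-acetylglucosamine from the ends of oligomers. Of 7 further pathogenesis-related genes, only *PDF1.2*, a defensin gene used as a marker of jasmonate and ethylene defense, was measured. It stood at 0.489, 0.347 and 0.350 in Mock and at 0.209, 0.249 and 0.211 in 4mer seedlings, with no overlap. Its log2 fold change of -0.81 (adjusted p = 0.309) depended on how dim values were treated, and was -0.44 with an offset of 0.25 and -0.64 with a floor of 0.25. The root marker *EXPA18* was lower in every 4mer array as well (log2 fold change -0.44, adjusted p = 0.234), while *PYK10* and *EXPA7* overlapped between groups. *PYK10* was at 47.8 to 76.25 in Mock, highest in replicate 1, and at 49.6 to 58.7 in 4mer seedlings. *EXPA7* was at 0.682 to 1.475 in Mock, lowest in replicate 1, and at 1.24 to 1.40 in 4mer seedlings. Whether the share of root tissue had a part in the values of the family 19 genes was not tested.

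**Figure D4:**
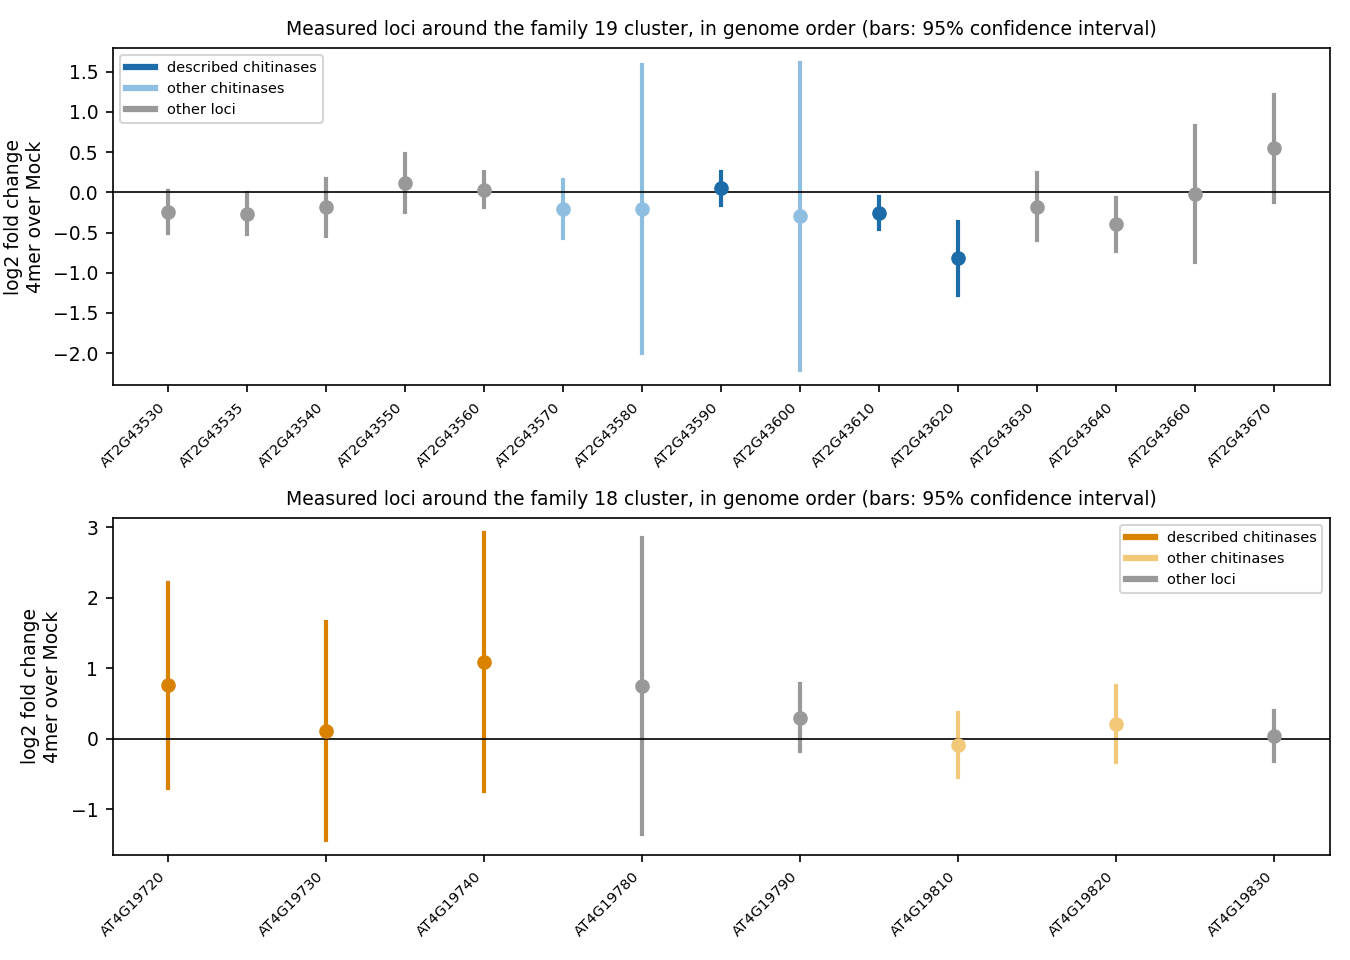
Log2 fold change of 4mer over Mock with its unadjusted 95% confidence interval for the measured loci around the family 19 cluster (top) and the family 18 cluster (bottom), placed in genome order and not to distance. AT2G43620 has the lowest value in the upper row, at -0.82, and the nearby AT2G43630 and AT2G43640 are at -0.18 and -0.40.

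The loci around the clusters were read from the order of genes in the TAIR10.1 annotation. Within 20 kb of the family 19 cluster, 12 other genes were measured, of which 3 were chitinases (*CHI*, AT2G43580 and AT2G43600) and 9 were not. AT2G43600, between AT2G43590 and AT2G43610, ranged from 0.0392 to 0.394. AT2G43580, on the other side of AT2G43590, ranged from 0.0456 to 0.349. In neither did the arrays separate by group. Of the 9 other genes 3 were higher and 6 lower, and the groups did not overlap in AT2G43535 (log2 fold change -0.26, adjusted p = 0.427) and AT2G43640 (-0.40, adjusted p = 0.363), an order that 12.5% of all probe sets had. AT2G43640 was at -0.22 without Mock replicate 1. In AT2G43630, which follows AT2G43620 on the chromosome, the groups overlapped and the difference of -0.18 had an adjusted p of 0.741.

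Around the family 18 cluster, 5 other loci were measured, namely *ChiC*, AT4G19820, the pseudogenes AT4G19780 and AT4G19790, and AT4G19830. The pseudogene AT4G19780 was dim, with 0.00735 to 0.0660, while AT4G19790 lay between 0.424 and 0.741 and AT4G19830 between 0.888 and 1.245. Their log2 fold changes ran from -0.09 in *ChiC* to 0.74 in AT4G19780, and in all 5 the groups overlapped. AT4G19790 is read by a probe set of a type that can match several transcripts, although the annotation pairs it with 1 gene.

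The genes whose levels over the 6 arrays were most like those of the chitinases were looked up among 5964 named probe sets with a mean level above 1, by Pearson correlation of log2 levels. AT4G01700 was followed most closely by AT5G22440, AT5G40530 and AT3G18860, each at a correlation of 0.98. Their differences were smaller than that of AT4G01700, at -0.21, -0.19 and -0.18 on the log2 scale, and none passed the adjusted test. AT2G43590, with the highest mean signal of its cluster, was followed by AT1G33790 (0.98), *TO2* (0.97), which encodes a thioredoxin, and the plastid gene *petB* (0.96), which encodes cytochrome b6. In these 3 genes, as in AT2G43590, the lowest of the 4mer arrays was replicate 2. AT4G19720, whose mean over the 6 arrays (0.0970) was just above that of AT4G19740 (0.0913), was followed by AT3G08910 (0.99), AT5G56520 (0.97) and AT3G12130 (0.97), all with overlapping groups. With 6 arrays and so many genes, high correlations are found for any pattern, and no test was made.

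**Figure D5:**
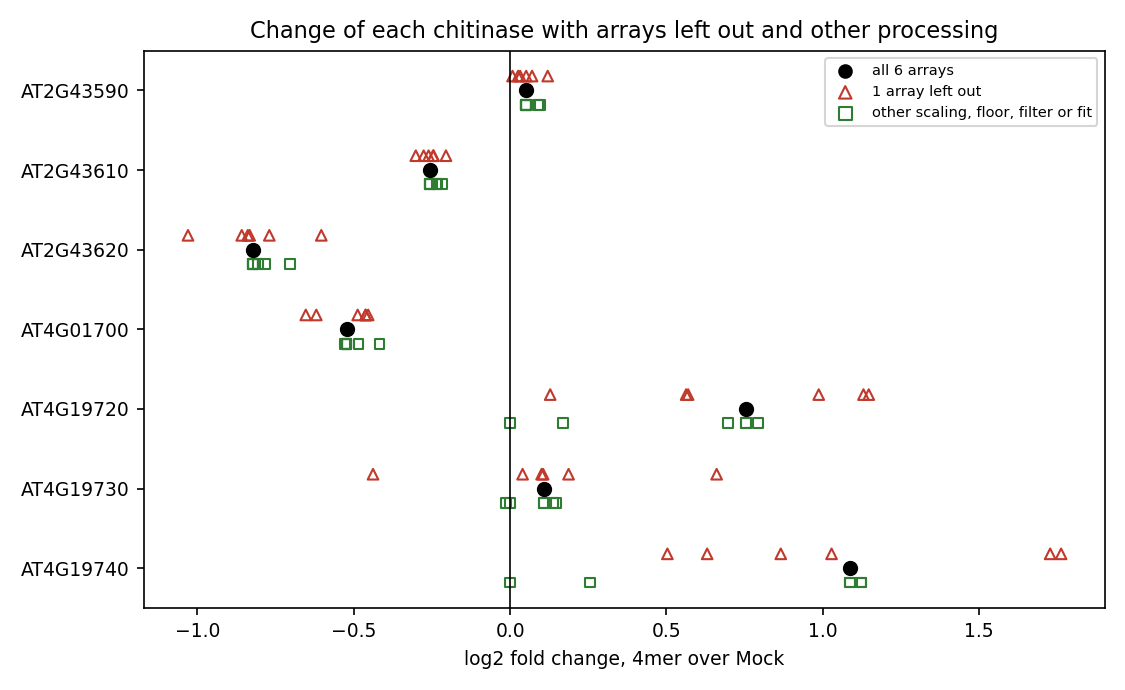
Log2 fold change of 4mer over Mock (horizontal) of each chitinase with all 6 arrays (black circles), with 1 array left out (red triangles) and with other scaling, floor, offset, filter or fit (green squares). AT2G43610, AT2G43620 and AT4G01700 stay below 0 throughout, between -1.03 and -0.21, and AT4G19730 lies on both sides of 0.

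Over the alternatives, 6 of the 7 chitinases kept their direction, apart from values of exactly 0 in the family 18 genes under the floor of 0.25. AT2G43620 ran from -1.03 without 4mer replicate 2 to -0.60 without 4mer replicate 1, AT4G01700 from -0.65 to -0.42, and AT2G43610 from -0.30 to -0.21. AT2G43590 ran from 0.01 to 0.12, and none of the 4 passed the adjusted test in any alternative. Apart from the floor, AT4G19720 ran from 0.13 without Mock replicate 2 to 1.15 without Mock replicate 1, and AT4G19740 from 0.26 with the offset of 0.25 to 1.76 without Mock replicate 3.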

How the data were processed

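Affymetrix ATH1 arrays were hybridized with RNA of 3 Mock and 3 4mer samples. The authors computed 1 signal per probe set in MicroArray Suite 5.0, and these were deposited as a linear intensity, without the detection calls. Means trimmed by 2% at each end were 496.8 to 497.5 on all arrays, so one scaling is already in them. Following the study's methods, each value was raised to at least 0.01 and divided by its array's 50th percentile. The test was that of limma 3.58.1 on log2 levels, in R 4.3.3 (variance trend, all 6 arrays, Benjamini-Hochberg adjustment over all probe sets, threshold 0.05). The methods name SAM with no threshold, so limma was used. Intervals and standard errors are from limma.

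The probe-to-gene table pairs 13513 probe sets with 1 gene and 503 with several, and 8730 are not listed. Of the 13513, 13436 matched the TAIR10.1 gene table. The text names all measured members, the measured genes of lists fixed by locus, the 3 most similar probe sets to AT4G01700 and to the member of each cluster with the highest mean, and loci within 20 kb of a cluster. The members and lists were chosen with earlier results of these data known. Promoter motifs and protein sequences were not analysed here. Scripts were tested on simulated data. The alternatives were quantile normalization, no scaling, an offset or floor of 0.25, only probe sets with a mean above 1, no variance trend, a replicate block and leaving out each array. They were extended to the other named genes after the data were seen. The number of arrays limits the precision. Figures were drawn with matplotlib 3.10.9.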

Additional observations from a re-analysis of the deposited data

How the results depend on the processing

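The number of chitinases past the adjusted test was 0 under each of the 13 alternatives, and 3 were lower at an unadjusted p under 0.05 in all but 2 of them. Without Mock replicate 2 or without 4mer replicate 3 it was 2, since AT2G43610 then missed it. Over all probe sets, 23 passed with all arrays, 338 without Mock replicate 1 and 0 with the replicate block, under which 3 chitinases were again lower (AT2G43620, adjusted p = 0.277). It was 10 with the floor of 0.25, 54 of the 11431 with a mean above 1, 2 with no variance trend, and 0 or 1 with any array other than Mock replicate 1 left out. The labels give no shared origin for equal replicate numbers, and the correlations of paired deviations were -0.0365, -0.00694 and -0.0431. The median of the family 18 cluster was 0 with levels below 0.25 set to 0.25, because all its values lie below that floor. AT4G19730 turned to -0.013 with the offset of 0.25 and ran from -0.44 without Mock replicate 3 to 0.66 without Mock replicate 2. None of the other named genes passed the adjusted test in any setting. Those that changed direction with an array left out ran from -0.95 to 0.52 (AT2G43580), -1.27 to 0.40 (AT2G43600), -0.27 to 0.0083 (AT3G47540), -0.27 to 0.021 (*ChiC*), -0.22 to 0.12 (*PYK10*), -0.19 to 0.37 (*EXPA7*), -0.32 to 0.050 (AT2G43630), -0.25 to 0.36 (AT2G43660, 0.016 with no scaling), -0.011 to 0.11 (AT2G43560), -0.081 to 1.36 (AT4G19780), -0.10 to 0.14 (AT4G19830) and -0.025 to 0.31 (AT5G56520). With only probe sets of a mean above 1, the family 18 genes gave no value. The median log2 fold change of all probe sets was -0.0138 with all arrays. Over the alternatives it lay between -0.0324, without Mock replicate 2, and 0.0245, without scaling between arrays. The planned search for promoter motifs was not run.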
